A study of Mus musculus with 18 samples.

Results

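The genes that write and erase N6-methyladenosine (m6A) on RNA were examined for m6A changes on their own transcripts in the uterus of pregnant mice. The group holds 10 genes, which are the writers Mettl3 and Mettl14, the writer complex subunits Wtap, Virma, Zc3h13, Rbm15, Rbm15b and Cbll1, and the erasers Fto and Alkbh5. Their peaks were the entries of 4 lists of differential m6A peaks in which the annotation named one of these genes, either as the transcript at the peak or as the assigned gene. This rule took 42 of the 40929 peaks used. Each of the 10 genes was named by at least 1 peak, but not always by a peak in the gene. The share of all genes named in any of the lists was not computed, and the shares by list are given below.

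The uterus was taken on day 5 of pregnancy from wild-type ICR mice of 8 weeks, which had daily intraperitoneal injections on days 1 to 4. Veh mice received saline, LPS mice received 0.5 mg/kg lipopolysaccharide on days 3 and 4, and Mel+LPS mice received 10 mg/kg melatonin daily and the same LPS dose 30 min after it on days 3 and 4. By the study's methods, melatonin was dissolved in saline that held some ethanol, while the labels give saline for Veh. Each of the 3 treatments had 3 input libraries and 3 libraries immunoprecipitated with an m6A antibody, 18 in all, from whole uterine RNA. The lists give 1 score per peak and comparison, the log likelihood ratio that MACS2 wrote for a difference between treatments, and none per replicate. No value below therefore has an error or a test, depth per library is unknown, and a peak in a list is a deposited call without a replicate check. They hold no expression levels either, so uterine marker genes could not be checked, and more methylation per transcript, more transcript and more cells that make it cannot be told apart. Both comparisons used the LPS libraries, so opposite directions in them are not independent of each other. The list of peaks down in LPS was used on chromosomes 1 to 9 alone, which hold Mettl14, Virma, Rbm15, Rbm15b and Fto; for the other 5 genes that direction was not analysed here.

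In mammalian cells, METTL3 carries the catalytic site and METTL14 pairs with it to hold the RNA. WTAP, VIRMA, ZC3H13, CBLL1, RBM15 and RBM15B form the larger partner complex that places the enzyme on its targets, and FTO and ALKBH5 can take the methyl group off again. Most m6A lies within the letters DRACH, in which D stands for any base but C, R for a purine and H for any base but G, and it is known to gather in long internal exons and around stop codons.

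The sequences below are from the highest-scored peak on the exons of each gene among the 42 peaks. They show the DRACH match nearest the middle of the exon part of that peak, with GGAC preferred. Where a peak runs into an intron, this middle is not the centre of the peak. The letters were read on the transcript strand from GENCODE transcripts of mouse build GRCm38. Capitals mark the match. For Mettl14 and Rbm15 the highest-scored peak held no match and the next was taken. Zc3h13 has a second line, for a peak on its exon 9 with a higher score (4.11), which is not among the 42 because its annotation did not name Zc3h13 at all.
Mettl14, coding exon 3, codon 72, chr3:123382774-123382794, minus strand: tgaaggagAGACTgatgaaga
Virma, coding exon 8, codon 610, chr4:11513966-11513986, plus strand: gcttctatGGACAtggatctt
Zc3h13, coding exon 16, codon 1543, chr14:75336038-75336058, plus strand: aagagagaGGACCagcaggaa
Zc3h13, coding exon 9, codon 405, chr14:75321855-75321875, plus strand: tcacgaacGGACTtcacagtc
Rbm15, 5′UTR, chr3:107333611-107333631, minus strand: tgagtgatGGACAgcgctttt
Rbm15b, coding exon 1, codon 642, chr9:106885034-106885054, minus strand: cagtgaagGGACCaaggagtc
Cbll1, coding exon 6, codon 389, chr12:31487578-31487598, minus strand: ctccccctGGACAtattattg
Fto, coding exon 3, codon 156, chr8:91409557-91409577, plus strand: ccttggaaGAACTggctgtca
Alkbh5, coding exon 2, codon 273, chr11:60547722-60547742, plus strand: cggcctcaGGACAttaaggaa
The 21 exon bases of the Wtap peak held no match, and Mettl3 had no peak on its exons. A match is a description of the letters in a peak and does not place the methyl group. Among the 42 peaks, 22 touched an exon of one of the 10 genes. This leaves out 5 peaks on their exons that were assigned to other genes. On the exon parts of the 22 peaks, DRACH occurred 68 times in 2500 bases, or 27.2 times per 1000 bases. Of these matches, 18 lay in 1 peak, the 263 bases on Zc3h13 exon 15, and without it the density was 22.4 per 1000 bases, an alternative chosen after the data were seen. The 23206 peaks of all genes that touched an exon held 24.6 per 1000 bases, between these values. They were taken whatever their assignment, so the sets were not chosen alike. At least 1 match was present in 18 of the 22 peaks (81.8%) and in 82.0% of the peaks of all genes. GGAC alone occurred 8.8 times per 1000 bases in the 22 peaks, 6.71 times without the Zc3h13 peak and 5.44 times over all genes.

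In LPS vs Veh, 7 peaks named 6 of the 10 genes in the up direction (Mettl3, Wtap, Zc3h13, Rbm15, Cbll1 and Alkbh5), and 26.8% of all protein-coding genes were named in that list. In the down direction, 8 peaks named 3 of the 5 genes that could be examined (Mettl14, Rbm15b and Fto), against 28.8% of all genes on those chromosomes. In Mel+LPS vs LPS, 23 peaks named 7 genes as up (Mettl14, Wtap, Virma, Rbm15, Rbm15b, Cbll1 and Fto), against 31.6% of all genes. The last list named 3 genes as down through 4 peaks (Mettl14, Zc3h13 and Rbm15), against 21.8% of all genes. These shares were not tested against each other, because the genes were chosen with results of these data known. The shares of all genes also count genes that the uterus may not express, which can give no peak, and the lists do not tell these apart.

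The scores of these peaks were low within their lists. The median log likelihood ratio of the 42 peaks was 1.88 (range, 1.14 to 6.06), against 2.53 over all peaks, and 13 of the 42 exceeded the median of their own list. By list, the medians were 1.90 for LPS up, 1.72 for LPS down, 1.84 for Mel+LPS up and 2.36 for Mel+LPS down, where the medians of all peaks were 2.88, 2.65, 2.17 and 3.09.

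Many of these peaks did not lie in the gene named. In the authors' deposited tables, the centre of 17 of the 42 peaks lay between the start and end of the assigned gene and that of 25 lay outside, by list 3 of 7, 1 of 8, 11 of 23 and 2 of 4 inside. Of all peaks, 52.6% had their centre outside the gene assigned. Against the GENCODE annotation, 25 of the 42 peaks lay in one of the 10 genes or touched its exons, including those assigned to a noncoding gene within or beside it, and the other 17 did not. These 25 peaks belonged to 9 genes, Mettl3 being the exception, and 6 of them exceeded the median of their list. Another 5 peaks lay on exons of Zc3h13, Virma and Fto and were assigned to neighboring pseudogenes or noncoding RNAs, so 30 peaks in all lay on or in the 10 genes.

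**Figure D1:**
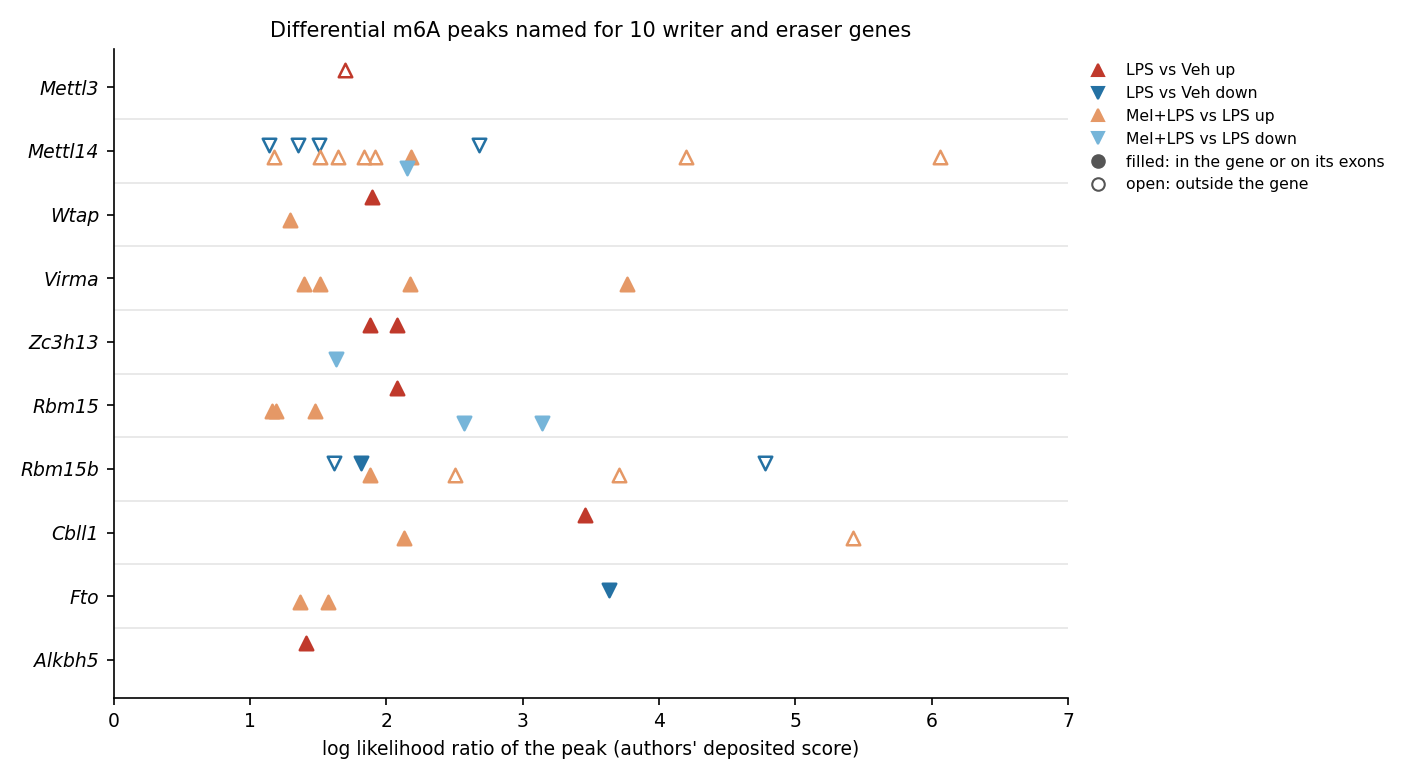
Log likelihood ratio (x axis) of the 42 peaks named for each of the 10 genes (y axis), where each point is 1 peak, the color and the direction of the triangle give the list, and filled points lie in the gene or on its exons. Of the peaks above a score of 4, all 4 are open, and the highest filled points are Virma at 3.76, Fto at 3.63 and Cbll1 at 3.46.

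Counted by exons instead, a peak touched an exon of 5 of the 10 genes in LPS up (Wtap, Zc3h13, Rbm15, Cbll1 and Alkbh5), against 19.3% of all genes. In LPS down this held for 2 of 5 (Virma and Rbm15b), against 21.8%. In Mel+LPS up it held for 6 of 10 (Mettl14, Virma, Rbm15, Rbm15b, Cbll1 and Fto), against 26.9%, and in Mel+LPS down for 3 of 10 (Mettl14, Zc3h13 and Rbm15), against 14.3%. This count was chosen after the data were seen. The exon rule removed Mettl3 and Wtap from a list each and Mettl14 and Fto from the LPS down list, and it added Virma there.

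Mettl3, the catalytic subunit, had 1 peak, up in LPS, on chromosome 14 at 52293647 to 52293844, with a score of 1.69. Its class was 3′UTR and the deposited gene was Mettl3, but its centre lay 1095.5 bases past the 3′ end of Mettl3 (52294841 to 52305128, minus strand). All 198 bases of it were on the last exon of Tox4, a plus-strand gene that encodes a chromatin protein and runs toward Mettl3. No peak of any list touched an exon or intron of Mettl3 itself in the directions analysed.

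Mettl14, the RNA-holding partner of METTL3, had 13 peaks, the most of the 10 genes, and 11 of them lay in Sec24d, the next gene on its 3′ side. Sec24d encodes a coat protein of vesicles that leave the endoplasmic reticulum, and it is read from the plus strand while Mettl14 (123368297 to 123386108 on chromosome 3) is read from the minus strand. These 11 peaks were centered 5499 to 40607.5 bases from Mettl14, and the annotation gave Sec24d as the transcript and Mettl14 as the gene. They included the highest score of all 42 peaks, 6.06 for a Mel+LPS up peak at 123327624 to 123327755.

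Of the 11 peaks in Sec24d, 4 were down in LPS, with scores of 1.14, 1.35, 1.51 and 2.68. The other 7 were up in Mel+LPS, with scores of 1.17, 1.51, 1.64, 1.84, 1.92, 4.20 and 6.06. None of the 11 was up in LPS or down in Mel+LPS, but they are only the Sec24d peaks assigned to Mettl14. Whatever the assignment, Sec24d held the centers of 8 peaks down in LPS, 7 up in Mel+LPS and 2 down in Mel+LPS. All 11 sat at the 3′ ends of Sec24d exons. Of these, 7 shared their first 7 to 40 bases with the end of a coding exon and went on into the intron, and 4 began 2 to 29 bases inside an intron.

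On Mettl14 itself there were 2 peaks, and they had opposite directions in Mel+LPS vs LPS. The up peak had a score of 2.18 and lay at 123371138 to 123371332, with 58 bases on exon 10 of 11 that encode codons 337 to 356. The down peak had a score of 2.15 and lay at 123382563 to 123382805, with 51 bases on exon 3 that encode codons 65 to 81. Both extended into the intron that follows their exon. No peak in LPS vs Veh touched Mettl14.

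**Figure D2:**
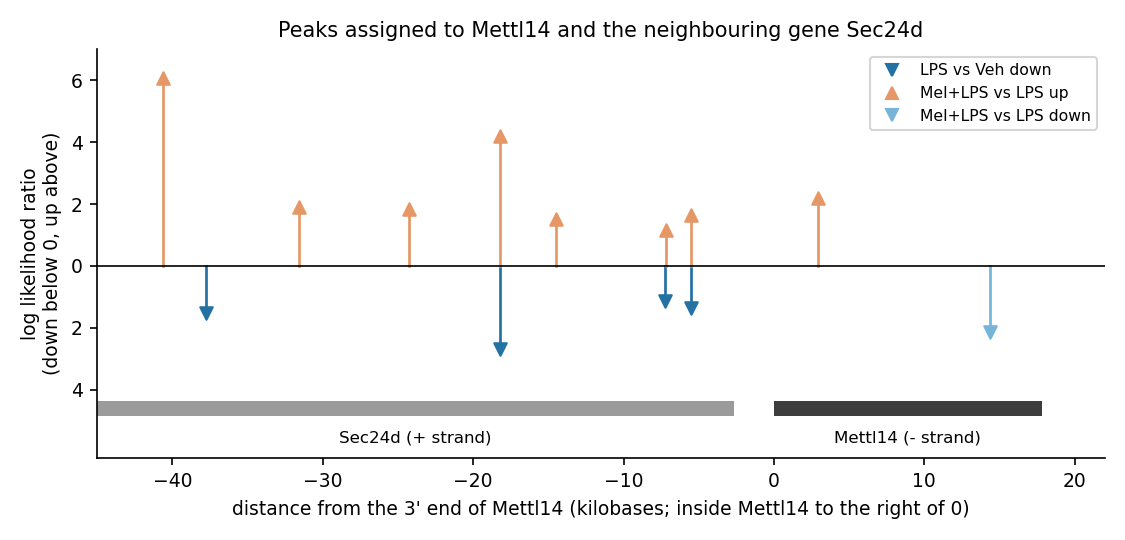
Peaks assigned to Mettl14, drawn by distance of the peak centre from the 3′ end of Mettl14 (x axis, kilobases) and by log likelihood ratio (y axis, up peaks above 0 and down peaks below), with the gene bodies as bars. Of the 13 peaks, 11 stand over Sec24d, and the tallest, at 6.06, stands farthest from Mettl14.

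Wtap, the subunit that brings the catalytic pair to nuclear speckles, had 1 peak in each comparison, both up, with LPS down not analysed. The LPS peak scored 1.90 at 12981600 to 12981770 on chromosome 17, with 21 bases on exon 4 of 8 (codons 42 to 49) and the rest in the intron after it. The Mel+LPS peak scored 1.29 at 12985722 to 12985910 and lay wholly in intron 2, starting 5 bases after the exon. The peaks were 3951 bases apart, so the same direction in both comparisons belonged to different sites.

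Virma, the scaffold of the complex, was up in Mel+LPS at 4 peaks in its coding sequence on chromosome 4. The peaks on exon 8 of 24 scored 1.40 (11513407 to 11513695, codons 420 to 516) and 3.76 (11513946 to 11514060, codons 600 to 638). Those on exons 9 and 13 scored 1.51 (11519286 to 11519389, codons 794 to 829) and 2.17 (11527129 to 11527282, with 11 bases on the exon). The score of 3.76 was the highest of any peak named for these genes that lay within the gene. In LPS down, a peak at 11549677 to 11549863 with a score of 1.86 ran from codon 1805 across the stop codon of Virma into the 3′UTR and was assigned to Gm35693, a noncoding RNA beyond its 3′ end. That site was 22394 bases or more from the peaks up in Mel+LPS.

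Zc3h13, which anchors the complex in the nucleus, had up peaks in LPS and down peaks in Mel+LPS, at different sites. Its chromosome was not analysed for LPS down. Gm46470, a pseudogene inside Zc3h13 on chromosome 14, was the assigned gene for all of its peaks, and 3 of 6 named Zc3h13 as the transcript. The 4 LPS up peaks lay on coding exons, with scores of 4.11 (75321772 to 75322037, exon 9 of 19), 1.35 (75323462 to 75323588, exon 10), 1.88 (75331898 to 75332160, exon 15) and 2.08 (75336000 to 75336178, exon 16). The peaks on exons 9 and 16 had 133 and 104 bases in the intron that follows, and the other 2 lay wholly on their exon. The first 2 were classed as promoter because of the pseudogene, although they lay at codons 374 to 418 and 497 to 539 of Zc3h13. The 2 Mel+LPS down peaks were nearer the 3′ end. They scored 1.63 at 75339468 to 75339641, with 5 bases on exon 18, and 1.90 at 75344030 to 75344215, centered 362 bases after the stop codon. The nearest of the up and down peaks were 3289 bases apart.

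Rbm15, an RNA-binding adaptor of the complex, held the only site of the 10 genes that was up in LPS and down in Mel+LPS, and 12.2% of all genes held such a pair of overlapping peaks. The LPS up peak scored 2.08 at 107333597 to 107333786 on chromosome 3, and the Mel+LPS down peak scored 3.14 at 107333630 to 107333829. They shared 157 bases, or 82.6% of the shorter peak, across the 5′ end of the transcript. Of the LPS peak 77 bases and of the Mel+LPS peak 44 bases were on the 5′UTR of the GENCODE transcript, and their centers lay 18.5 and 56.5 bases upstream of its start. Both were within the longer RefSeq gene, which starts at 107334460 on the minus strand.

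Elsewhere in Rbm15 the peaks went both ways in Mel+LPS. Within its long first coding exon, 3 peaks were up in Mel+LPS, with scores of 1.16 (107330696 to 107330892, codons 730 to 795), 1.48 (107331224 to 107331343, codons 580 to 619) and 1.19 (107331472 to 107331572, codons 503 to 537). A further peak, in intron 1 at 107326426 to 107326587, was down in Mel+LPS with a score of 2.57 and ended 121 bases before exon 2. With the 5′ site, Rbm15 had 3 up peaks in the coding sequence and 2 down peaks outside it in this comparison, and no peak in LPS down.

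Rbm15b, the paralog of Rbm15, had 6 peaks on chromosome 9, of which 2 lay in the gene, an intronless gene at 106880918 to 106887428. Its own peaks were down in LPS with a score of 1.82 (106884672 to 106884813, codons 719 to 766) and up in Mel+LPS with a score of 1.88 (106885026 to 106885139, codons 610 to 648). They were 212 bases apart and did not overlap. In GENCODE, Rbm15b also lies within an intron of a long transcript of Manf on the same strand, and reads of the 2 genes cannot be told apart there.

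The other 4 peaks of Rbm15b lay on 3′UTR exons of its neighbors. On Dcaf1, a substrate receptor of a ubiquitin ligase, a peak down in LPS scored 1.62 (106880070 to 106880195) and an overlapping peak up in Mel+LPS scored 2.51 (106880052 to 106880219). On Manf, a secreted factor of the endoplasmic reticulum stress response, a peak down in LPS scored 4.78 (106888765 to 106889012) and an overlapping peak up in Mel+LPS scored 3.71 (106888761 to 106888899). The Manf peaks were classed as promoter of Rbm15b. Of these 4 peaks, 3 scored above both peaks on Rbm15b itself.

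Cbll1, also called Hakai, a zinc finger subunit of the complex, had an up peak in each comparison in its last coding exon on chromosome 12. LPS down was not analysed on that chromosome. The LPS peak scored 3.46 (31487503 to 31487749, codons 336 to 418) and the Mel+LPS peak scored 2.13 (31487867 to 31488139, codons 206 to 296), with 117 bases between them. GENCODE has an antisense gene, Gm29542, at 31486958 to 31487889 on the opposite strand, which covers the LPS peak and only the edge of the Mel+LPS peak. The peaks carry no strand, so at the LPS peak reads of the 2 genes cannot be told apart. Another peak, up in Mel+LPS with a score of 5.42 (31478243 to 31478434), was classed as distal intergenic and centered 6490.5 bases beyond the 3′ end of Cbll1.

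Fto, an eraser, had 4 peaks in its gene on chromosome 8, of which 1 was down in LPS and 3 were up in Mel+LPS. The LPS down peak scored 3.63 at 91635635 to 91635830, deep in intron 8, with 112738 bases to the exon before it and 30451 bases to the exon after it. The Mel+LPS up peaks touched exons, with scores of 1.36 at 91313589 to 91313767 (exon 1, codons 5 to 15), 1.57 at 91409528 to 91409648 (exon 3, codons 143 to 183) and 1.36 at 91667336 to 91667486 (3′UTR, 979 bases after the stop codon). The peak at exon 1 had 32 bases on the exon and 147 in the intron after it, and the other 2 lay wholly on an exon. The nearest of them was 31505 bases from the LPS down peak. Of the 4 peaks, 1 was assigned to Fto itself, and the others were assigned to Gm9619 or 4831440D22Rik.

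Alkbh5, the other eraser, had 1 peak, up in LPS, on chromosome 11, where LPS down was not analysed. The peak scored 1.41 at 60547729 to 60547925, with 40 bases on exon 2 of 4 that encode codons 272 to 285, and the rest lay in the intron after it. Its score was at percentile 13.4 of its list. No peak on Alkbh5 was found in Mel+LPS vs LPS.

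**Figure D3:**
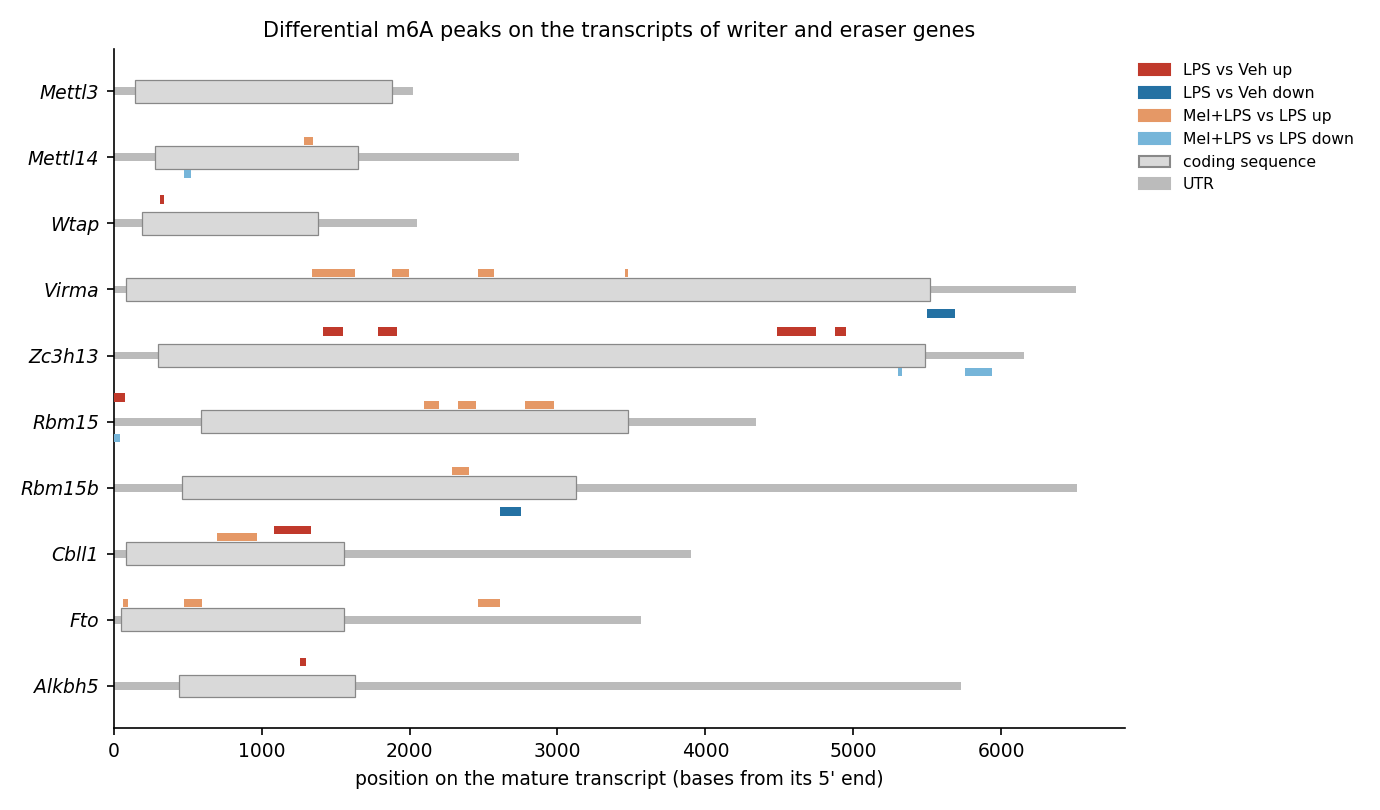
Peaks on the mature GENCODE transcript of each of the 10 genes (x axis, bases from the 5′ end), with the coding sequence as a box and UTRs as a thin bar, up peaks drawn above and down peaks below in the color of their list. Of the 27 peaks on exons, 22 are in coding sequence, and the Rbm15 transcript has an up and a down peak together at its 5′ end.

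Most peaks on these transcripts were in the coding sequence. By the middle of the exon part, 22 of 27 peaks (81.5%), the 5 assigned to other genes included, were in coding sequence, 3 (11.1%) in the 3′UTR and 2 (7.41%) in the 5′UTR. Over the peaks of all genes the shares were 67.1%, 30.4% and 2.56%. Within 200 bases of the stop codon lay 2 of the 27 peaks (7.41%, on Virma and Zc3h13), against 18.8% over all genes. These shares are descriptions, since several peaks share a gene.

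Peaks that left their exon did so mainly on its 3′ side. Of the 27 peaks, 16 lay wholly on an exon, 9 ran into the intron on the 3′ side and 2, the Rbm15 site, extended past the 5′ end of the transcript. Over all genes, 97.7% of the 9764 peaks that left an exon on 1 side did so on the 3′ side. Of the 42 peaks, 7 lay wholly in an intron, and 5 of these began within 100 bases after an exon, 4 of them in Sec24d. In introns of the 10 genes themselves it was 1 of 3, the Wtap peak, and not the Fto and Rbm15 peaks. None of the 7 ended within 100 bases before an exon. For the intron peaks of all genes, the share that began within 100 bases after an exon was 27.5% in LPS up, 34.2% in LPS down, 68.7% in Mel+LPS up and 18.8% in Mel+LPS down. When the peaks were moved 100 bases toward the 5′ end, DRACH occurred 30.0 times per 1000 exon bases for these genes and 24.1 times over all genes.

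Between the comparisons, 6 sites of the 10 genes by assignment had overlapping peaks, and each had opposite directions. The pattern of down in LPS and up in Mel+LPS held at 5 of them, which were assigned to 2 of the 5 genes examined, Mettl14 and Rbm15b, and 11.4% of all genes on chromosomes 1 to 9 had such a site. None of these 5 was in the gene to which it was assigned. In Sec24d they scored 2.68 in LPS and 4.20 in Mel+LPS, 1.14 and 1.17, and 1.35 and 1.64, beside the pairs on Dcaf1 and Manf given above. The site at the 5′ end of Rbm15 had the reverse pattern and touched its own transcript. No overlapping peaks had the same direction in both comparisons, and 1.21% of all genes had such peaks. That share is over all chromosomes, although pairs down in both comparisons could be found on chromosomes 1 to 9 alone.

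**Figure D4:**
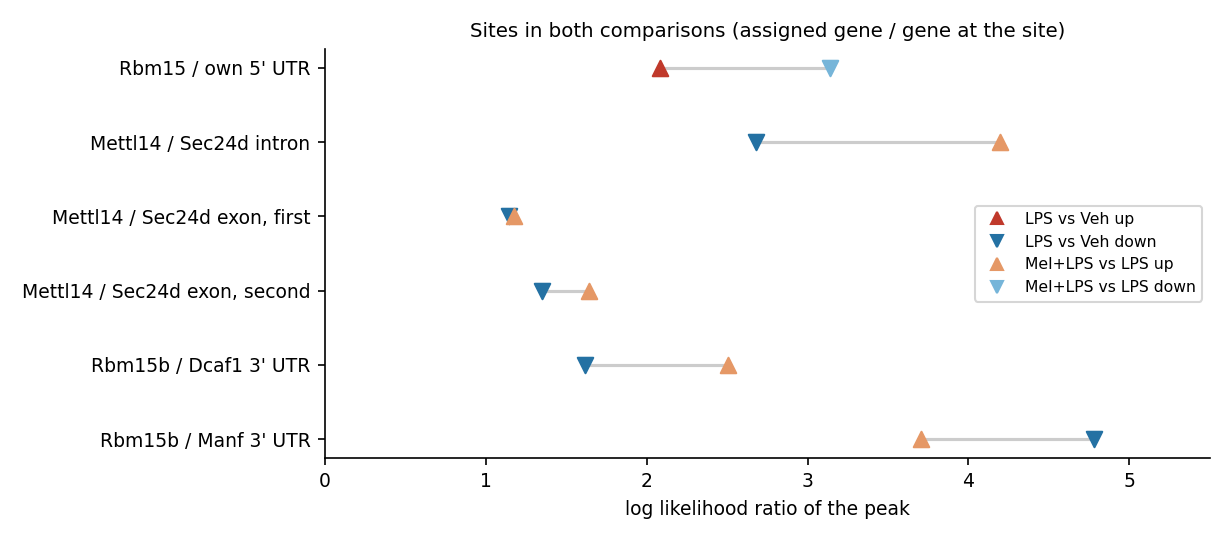
Log likelihood ratio (x axis) at the 6 sites with overlapping peaks in both comparisons, 1 line per site, with the assigned gene and then the gene at the site (y axis). The top site, at the 5′ end of Rbm15, was up in LPS (2.08) and down in Mel+LPS (3.14), and the other 5 were down in LPS and up in Mel+LPS and lay in Sec24d, Dcaf1 and Manf.

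Other genes of RNA methylation were named in the lists as well. Of 10 such genes (Mettl16, Mettl5, Trmt112, Zcchc4, Pcif1, Mettl4, Mat2a, Mat2b, Ahcy and Zfp217), 4 were named in LPS up, 1 of 6 in LPS down, 6 in Mel+LPS up and 5 in Mel+LPS down. The 21 peaks that named them had a median score of 2.43, and not all lay in the gene named. Pcif1, for example, was named although no peak touched its exons. Of 13 m6A reader genes, which encode proteins that bind the mark, 5 were named in LPS up, 5 of 7 in LPS down, 10 in Mel+LPS up and 4 in Mel+LPS down, through 40 peaks with a median score of 2.07. The shares of all genes named were 26.8%, 28.8%, 31.6% and 21.8% in the same order, and neither list was tested against them. By assignment, the readers had 8 pairs of overlapping peaks down in LPS and up in Mel+LPS, 2 of the reverse and 1 with the same direction in both. The writers and erasers had 5, 1 and 0 by assignment, but these counts are not alike. None of the 5 lay in the writer or eraser gene named, whereas Ythdf1, Ythdf2, Ythdc1, Hnrnpa2b1 and Elavl1 held such pairs within their own genes. The 5 pairs came from the surroundings of 2 genes, Mettl14 and Rbm15b. How often such pairs of all genes lie in the gene named was not counted, and the difference between the lists was not tested.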

How the data were processed

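m6A-seq was run on uterine RNA, with 3 input and 3 immunoprecipitated libraries per treatment. Per the study's methods, RNA was fragmented, reads were trimmed with Fastp and aligned with STAR (2.5.2a), peaks were called with exomePeak2, treatments were compared with MACS2 (3.4) and peaks were annotated with ChIPseeker (1.22.1), on build mm10 in the submitters' processing notes. How replicates were combined is not given in the sources used here. The authors deposited 4 lists of differential peaks, each with a score, the log likelihood ratio of MACS2, whose lowest value was 1.01. The base of the logarithm is not written in the tables. The LPS down list ends inside a line, and 6259 of its 6414 complete peaks, those on chromosomes 1 to 9, were used.

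The members and lists were chosen with earlier results of these data known. A gene was named by a peak where it was the transcript or the assigned gene in the annotation. Chromosomes matched GRCm38.p6, and peaks were placed on GENCODE M21, with 1 transcript for each of 21910 protein-coding genes for exons, codons and motifs. Background shares used 21887 RefSeq protein-coding genes, 11966 of them on chromosomes 1 to 9. DRACH and GGAC were searched on the transcript strand of exon bases. Sites were shared where peaks of both comparisons overlapped by at least 1 base. All 10 genes were named, with every peak. Other genes were named where they hold or adjoin such a peak. The rule for sequences was extended to the next peak where the highest held no match. Placement, motif search and overlap were tested on simulated data. No statistical test was made, since the lists hold no values per replicate. Alternatives were higher scores, other rules for the gene of a peak, joined peaks, other overlaps, another motif and moved peaks. Python 3.11.15, numpy 2.4.6, pandas 2.3.3 and matplotlib 3.10.9 were used.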

Additional observations from a re-analysis of the deposited data

How the results depend on the processing

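No paired analysis was possible because the lists hold 1 score per peak and comparison and no values per replicate, and no replicate could be left out for the same reason. Of 55 values under alternatives, 31 were counted as close to the reported ones and 24 as moved. Close included changes such as 7 to 5 peaks (LPS up, assigned gene alone) and 3 to 2 genes (LPS down, score of at least 3). The peak counts were 7 in LPS up, 8 in LPS down, 23 in Mel+LPS up and 4 in Mel+LPS down. With a score of at least 2 they were 3, 3, 9 and 3, and with at least 3 they were 1, 2, 5 and 1. With the centre within the deposited gene they were 3, 1, 11 and 2. By the GENCODE gene, whatever the assignment, LPS down had 3 and Mel+LPS up 14, and by exons 2 and 13. The gene counts of 6, 3, 7 and 3 were 1, 2, 4 and 1 with a score of at least 3, and 3 in LPS up and 1 in LPS down with the centre within the gene. The 5 sites down in LPS and up in Mel+LPS were 2 with scores of at least 2 in both, and 0 with peaks in the named gene or on its exons alone, an alternative chosen after the data were seen. The site up in LPS and down in Mel+LPS was found under all 4 alternatives tried. A rule of the centre within the gene was not among them, and both Rbm15 peaks there had their centre outside the deposited and GENCODE genes. Sites with the same direction went from 0 to 1 with peaks up to 200 bases apart, which was Cbll1. The motif density of 27.2 was 8.8 for GGAC, a narrower motif by construction. The depth behind the scores is unknown, and a low score cannot be told from a thinly covered peak.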

Other observations

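Among the other genes of RNA methylation, Zcchc4, which methylates ribosomal RNA, had the highest score on its own transcript. In LPS its 3′UTR held a down peak, at 52819526 to 52819673 on chromosome 5, with a score of 9.49, and next to it a peak at 52819254 to 52819515 was down in Mel+LPS with a score of 1.61. Both were assigned to the neighboring gene Anapc4. Zfp217, a zinc finger protein known to bind METTL3, had 3 coding peaks up in LPS, with scores of 1.18, 1.71 and 1.96, and 1 up in Mel+LPS with a score of 1.21. Mettl4, a methyltransferase of the same family as METTL3, had a 3′UTR peak down in Mel+LPS with a score of 3.98 and a 5′UTR peak up in Mel+LPS with a score of 1.57. A further Mettl4 peak, in an intron, was down in Mel+LPS with a score of 2.60. In Mel+LPS, Mettl5 had a coding peak up (2.20) and an intron peak down (1.39), and intron peaks of Ahcy (3.65) and Mat2b (1.82) were up. Mettl16, which methylates the message of a methionine adenosyltransferase gene, had a coding peak up in LPS with a score of 1.39.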
